A study of Gallus gallus with 26 samples.

Results

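The microRNAs (miRNAs) described here are the guide strands made from the miR-17-92 cluster and from its paralogue cluster. The guide strand is the arm of a miRNA hairpin that is mainly kept, and the passenger strand is the other arm. The members were chosen by miRNA name: gga-miR-17-5p, gga-miR-18a-5p, gga-miR-19a-3p, gga-miR-20a-5p, gga-miR-19b-3p, gga-miR-92-3p, gga-miR-106-5p, gga-miR-18b-5p and gga-miR-20b-5p, where gga stands for Gallus gallus and is left out below. All 9 were present in the table of 1235 chicken miRNAs, and all 9 were among the 266 that passed the filter on low counts. Each member had between 106 and 50982 counts in each library, so none passed through a single group.

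The libraries came from chicken ovary in 3 groups: normal ovary (n = 4), early-stage ovarian cancer (n = 4) and late-stage ovarian cancer (n = 5), called normal, early and late below. Each of the 13 sample codes has values for miRNA and for messenger RNA (mRNA), and a sample is called here by its group and its code number. The labels give no age, strain or treatment of the hens, and they do not say that samples of a group came from separate birds. P-values therefore measure the spread between these samples, which may be technical. The comparisons ask how the RNAs of normal ovary and of the tumour stages differ. Whole pieces of tissue were read, so a change in the share of a cell type and a change in RNA per cell cannot be told apart.

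MiRNAs are short RNAs that guide Argonaute proteins to messenger RNAs, and the target is chosen mainly by the seed, the stretch near the 5′ end of the guide. The miR-17-92 cluster is cut from a single primary transcript. In mammals that transcript is switched on by MYC and E2F factors, and it is known as an oncogenic cluster that promotes proliferation and survival. By seed the members form the miR-17 family (miR-17-5p, miR-20a-5p, miR-20b-5p and miR-106-5p), the miR-18 family (miR-18a-5p and miR-18b-5p), the miR-19 family (miR-19a-3p and miR-19b-3p) and miR-92-3p. In mouse lymphoma models miR-19 is the component that contributes most to tumour growth.

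In RefSeq's table of assembly GRCg7b, 6 hairpins lie side by side on chromosome 1 with no other gene between them (MIR17, MIR18A, MIR19A, MIR20A, MIR19B1 and MIR92A1). Another 6 lie side by side on chromosome 4 (MIR106A, MIR18B, MIR20B, MIR19B-2, MIR92-2 and MIR363). MiR-19b-3p and miR-92-3p have a hairpin in each place, so their counts cannot be assigned to a cluster. The other members were named from 1 cluster each: 4 from chromosome 1 and 3 from chromosome 4. Members of a seed family also resemble each other closely, and how reads that match more than 1 miRNA were counted is not given in the sources used here. Splits within miR-17-5p and miR-106-5p, miR-18a-5p and miR-18b-5p, miR-19a-3p and miR-19b-3p, and miR-20a-5p and miR-20b-5p are therefore uncertain.

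MiRNA libraries held 3038926 to 7728289 counts, and mRNA libraries 16273668 to 20118500. Levels are given as normalised CPM, which are each library's counts divided by its scaled library size. Markers of ovary (FSHR, AMH, CYP19A1, FOXL2, ZP2 and GDF9) were read in every group, with a summed level of 1005 to 1663 CPM in normal, 1065 to 1885 in early and 1462 to 1839 in late samples. Early sample 11 stood apart in miR-451 and miR-144-3p of red blood cells, which summed to 465177 CPM there. In the normal samples their sum lay between 26729 and 77138 CPM, and in the late samples between 32174 and 129665.

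The cluster was read at very unequal levels. MiR-19b-3p, at a mean of 4636 CPM over the 13 libraries, was the most abundant member and ranked 22 among all listed miRNAs. Its mean was 4.79 times that of miR-20a-5p (968.5 CPM), and it was above miR-20a-5p in 13 of 13 libraries. MiR-20a-5p, miR-20b-5p (863.5 CPM) and miR-17-5p (726.4 CPM) formed a middle group. Their order was not the same in every library, since miR-20a-5p was above miR-20b-5p in 8 and miR-20b-5p above miR-17-5p in 10. MiR-92-3p (357.9 CPM) and miR-18b-5p (201.2 CPM) followed, each above the next member in all 13. MiR-18a-5p (71.1 CPM) and miR-19a-3p (67.3 CPM) did not separate, with miR-18a-5p the higher in 6 libraries. MiR-106-5p, at 41.4 CPM, was the lowest in the order of means. The library chemistry may capture different miRNAs unequally, and that was not measured here.

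**Figure D1:**
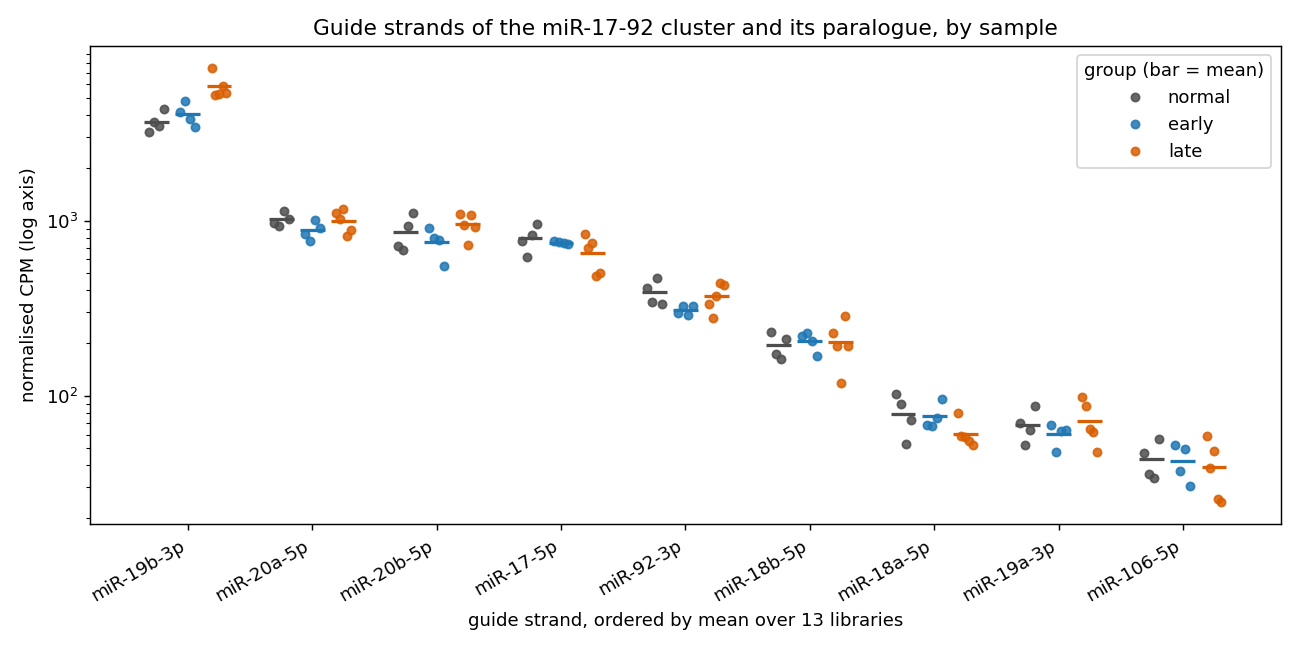
Normalised CPM (log axis) of the 9 guide strands in every miRNA library, with points for samples and bars for group means (normal, n = 4; early, n = 4; late, n = 5). MiR-19b-3p stands above the other members in all 13 libraries, and its 5 late samples, from 5227 to 7484 CPM, lie above all normal and early samples.

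No member passed the test in any comparison. In edgeR's quasi-likelihood test, with p-values adjusted over all 266 miRNAs and a threshold of 0.05, 0 of 9 members were called in early against normal, in late against normal and in late against early. Over all tested miRNAs the share called was 0% in early against normal, 0.752% (2 miRNAs) in late against normal and 0% in late against early. At an unadjusted p under 0.05 the members numbered 0, 1 and 1, where 8.27%, 18.4% and 14.3% of all miRNAs lay. The single member was miR-19b-3p each time. DESeq2 called 0, 1 and 0 members, and limma voom called 0 in each comparison. Of all 266 miRNAs DESeq2 called 3, 15 and 4, and limma voom again 0 in each.

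In late against normal, 4 members had a higher and 5 a lower fitted level, with a median log2 fold change of -0.02. Of all tested miRNAs 41.0% had a higher fitted level in that comparison, with a median of -0.12. In early against normal 2 members were higher and 7 lower (median -0.08), beside 39.5% higher and a median of -0.10 over all. In late against early 5 were higher and 4 lower (median 0.18), beside 45.5% and -0.05. Each pair of these comparisons shares a group of samples, so the 3 medians are not independent. With DESeq2's size factors in place of TMM the median of all miRNAs in late against normal was -0.03.

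**Figure D2:**
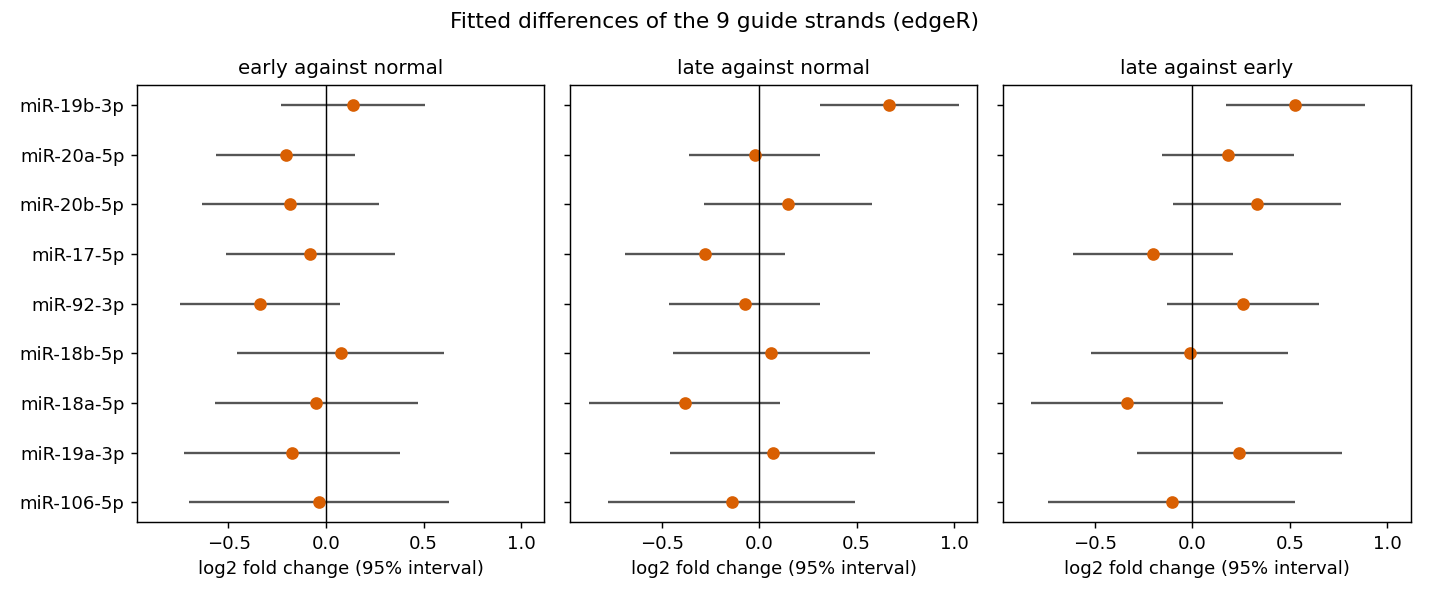
Fitted log2 fold change (points) with its 95% interval (lines) for each guide strand in the 3 comparisons, from edgeR over all 13 libraries. The interval lies above 0 for miR-19b-3p in late against normal (0.31 to 1.02) and late against early (0.17 to 0.88), and includes 0 for the other 8 members in every comparison.

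MiR-19b-3p, of the miR-19 family, was the member with the largest difference. It stood at 3221, 3681, 3493 and 4346 CPM in normal samples 3, 4, 6 and 7. Early samples 9, 11, 12 and 21 had 4165, 4805, 3829 and 3440 CPM. Late samples 3, 7, 23, 25 and 31 had 7484, 5227, 5314, 5918 and 5350 CPM. Every late sample was above every normal and every early sample, late sample 3 was the highest, and the normal and early samples overlapped. Such separation of late from normal samples, in either direction, was seen in 6.02% of all tested miRNAs, and with late samples higher in 2.26%. For late against early these shares were 3.38% and 1.13%.

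The group means of miR-19b-3p were 3685 ± 479 CPM in normal ovary, 4060 ± 578 in early tumour and 5859 ± 948 in late tumour (SD, n = 4, 4 and 5). In late against normal the log2 fold change was 0.67 ± 0.17 (SE), or 1.59-fold, with p = 0.00118 and an adjusted p = 0.0522 in edgeR, just above the threshold of 0.05. It ranked 6 by p among 266 miRNAs. In late against early the log2 fold change was 0.53 ± 0.17 (SE, edgeR adjusted p = 0.26), and in early against normal 0.14 ± 0.17 (edgeR adjusted p = 0.911). DESeq2 called the late against normal difference (log2 fold change 0.76, adjusted p = 0.00813). Without normal sample 7, the normal library with most miR-19b-3p, edgeR called it as well (0.76, adjusted p = 0.0374), and without late sample 3 it did not (0.57, adjusted p = 0.0866). Over all miRNAs the calls were 10 of 269 without normal sample 7 and 0 of 262 without late sample 3. Both libraries lay at an end of their group in several marker lists. Normal sample 7 had the lowest summed smooth muscle markers of the normal samples (625.4 CPM, others 2485 to 9570). Its myeloid markers were the lowest too (520.8, others 791.3 to 1116), and both sums were within the late range. It also had the lowest B cell sum (1281, others 2286 to 5683) and the highest proliferation (3697, others 2138 to 2532) and epithelial sums (1202, others 909.5 to 971.6). These sums were within the late range as well, as was the B cell sum of normal sample 6. The epithelial sum of normal sample 7 rests on EPCAM (1069 CPM, the highest normal value). Its KRT7 (110.0 CPM), KRT18 (18.2), CDH1 (4.54) and CLDN3 (0.049) were the lowest of the normal samples. For ovary, T cell and endothelial markers normal sample 7 lay inside the range of the other normal samples. Late sample 3 had the lowest smooth muscle and myeloid sums of all late samples (110.8 and 205.2 CPM) and the highest for proliferation (4669 CPM). It was also the lowest late sample for B cells (111.5 CPM), T cells (8.72), red blood cells (12.7), endothelium (302.7) and the gene PTPRC (4.20). For epithelium (1471 CPM) and ovary (1839 CPM) it was the highest late sample. Its epithelial sum was mostly EPCAM (1426 CPM), which like CDH1 (8.46) was the highest late value. Its KRT7 (28.9 CPM) and KRT18 (7.58) were the lowest late values. The part of these marker differences in the result was not tested. Under the other settings run (scalings, filter, voom, fewer libraries) the adjusted p stayed above 0.05, as high as 0.909 with sample number as a block on 4 libraries.

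MiR-19a-3p has the same seed as miR-19b-3p and was read far less often. It stood at 70.1, 52.5, 63.7 and 87.4 CPM in normal samples 3, 4, 6 and 7, at 68.1, 47.8, 63.0 and 63.7 CPM in early samples 9, 11, 12 and 21, and at 98.5, 87.0, 64.2, 61.6 and 47.7 CPM in late samples 3, 7, 23, 25 and 31. The 3 groups overlapped. The late against normal difference was 0.07 on the log2 scale, with a 95% interval from -0.45 to 0.59, so an increase of the size fitted for miR-19b-3p lies just outside that interval. The interval of miR-19b-3p itself, from 0.31 to 1.02, overlaps that of miR-19a-3p. A difference between the responses of both miR-19 strands was not tested.

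In the miR-17 family, miR-17-5p had its lowest levels in late tumour. Normal samples 3, 4, 6 and 7 had 768.6, 620.3, 825.2 and 959.3 CPM, and early samples 9, 11, 12 and 21 had 763.3, 756.7, 746.6 and 734.4 CPM. Late samples 3, 7, 23, 25 and 31 had 836.3, 696.9, 750.2, 483.2 and 501.7 CPM. Late samples 25 and 31 lay below every other library, the other 3 late samples lay among the normal ones, and the early samples were close together (SD 12.6 CPM). The late against normal difference was -0.28 ± 0.19 (SE) on the log2 scale (edgeR adjusted p = 0.463), with a 95% interval from -0.69 to 0.13.

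MiR-106-5p, the counterpart of miR-17-5p in the chromosome 4 cluster, was lowest in the same late libraries. It had 25.8 CPM in late sample 25 and 24.6 in late sample 31, against 38.8 to 58.6 in the other late samples, 33.7 to 56.4 in normal and 30.5 to 52.3 in early samples. Across the 13 libraries log2 CPM of miR-17-5p and miR-106-5p correlated at r = 0.797, the highest value among the 12 pairs from different clusters. Each point is a library that both values share, and reads shared between these near-identical strands may enter both. The count of miR-17-5p per count of miR-106-5p was 18.8 ± 3.8 in normal, 18.6 ± 4.5 in early and 17.4 ± 2.5 in late samples, and the groups overlapped.

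MiR-20a-5p and miR-20b-5p carry the same seed. MiR-20a-5p ranged from 928.4 to 1138 CPM in normal, from 767.6 to 1013 in early and from 816.5 to 1166 in late samples, with late against normal at -0.02 (95% interval -0.36 to 0.31). Its sign turned positive under each scaling alternative. MiR-20b-5p ranged from 678.5 to 1111, from 549.4 to 903.2 and from 725.4 to 1090 CPM. It had the smallest p after miR-19b-3p in late against early, with a log2 fold change of 0.33 ± 0.20 (SE, edgeR adjusted p = 0.434). Both members overlapped between the groups in all 3 comparisons.

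In the miR-18 family, miR-18a-5p was at 101.8, 89.1, 52.8 and 72.3 CPM in normal samples 3, 4, 6 and 7. It was at 67.8, 67.2, 75.0 and 95.4 CPM in early samples 9, 11, 12 and 21, and at 79.4, 58.9, 57.7, 54.8 and 52.2 CPM in late samples 3, 7, 23, 25 and 31. Apart from late sample 3 the late samples were below all early samples, and normal sample 6 was among the low late values. Its late against normal difference, -0.38 ± 0.23 (SE, edgeR adjusted p = 0.402), was the lowest fitted value of the 9 members in that comparison. MiR-18b-5p had a wider spread in late samples, from 118.7 CPM in late sample 23 to 285.5 in late sample 25. Normal samples had 162.6 to 230.98 CPM, early samples 168.6 to 227.7, and the late against normal difference was 0.06 (95% interval -0.44 to 0.57).

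MiR-92-3p did not pass the test in any comparison either. It had 412.4, 343.2, 470.6 and 335.96 CPM in normal samples 3, 4, 6 and 7, and 298.5, 324.1, 287.7 and 326.5 CPM in early samples 9, 11, 12 and 21. Every early sample was below every normal sample, by a narrow margin between early sample 21 and normal sample 7. Groups of early and normal samples did not overlap for 3.01% of all miRNAs. The log2 fold change was -0.34 ± 0.19 (SE, p = 0.0999 and edgeR adjusted p = 0.653), and without normal sample 6, the highest, it was -0.185. In late samples miR-92-3p lay between 278.9 and 439.2 CPM and overlapped both other groups.

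Summed over all 9 members, the guide strands came to 7130 ± 772 CPM for normal, 7140 ± 638 for early and 9211 ± 1212 for late samples (SD, n = 4, 4 and 5). Late samples, from 8408 to 11317 CPM, were above normal samples, from 6541 to 8206. Without miR-19b-3p the sums were 3445 ± 415, 3081 ± 167 and 3352 ± 288 CPM, and late samples (3058 to 3833) overlapped normal samples (2921 to 3861). The 4 members named from chromosome 1 alone summed to 1957 ± 203, 1768 ± 108 and 1787 ± 319 CPM. The 3 from chromosome 4 alone summed to 1097 ± 211, 1004 ± 181 and 1195 ± 204 CPM. The makeup of the summed guide strands differed accordingly: the miR-19 family took 52.6% ± 3.3 in normal, 57.5% ± 3.1 in early and 64.2% ± 2.0 in late samples, and the miR-17 family 38.0% ± 2.7, 34.2% ± 2.8 and 28.8% ± 2.4. These sums and shares were not tested, because the miR-19 share rests on miR-19b-3p.

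Ratios within a library do not depend on the scaling between libraries. For each count of miR-17-5p there were 4.19, 5.93, 4.23 and 4.53 counts of miR-19b-3p in normal samples 3, 4, 6 and 7. Early samples 9, 11, 12 and 21 had 5.46, 6.35, 5.13 and 4.68 counts, and late samples 3, 7, 23, 25 and 31 had 8.95, 7.50, 7.08, 12.2 and 10.7. Every late sample was above every normal and early sample. The ratio to miR-18a-5p behaved alike, at 31.6 to 66.2 in normal, 36.1 to 71.5 in early and 88.8 to 108.0 in late samples.

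Among the 8 ratios of miR-19b-3p to another member, 5 did not overlap between late and normal samples (those to miR-17-5p, miR-18a-5p, miR-20a-5p, miR-20b-5p and miR-106-5p), and 2 did not overlap between late and early samples. Ratios to miR-19a-3p, miR-18b-5p and miR-92-3p overlapped. Between early and normal samples 0 of 8 were separate. Of the ratios of miR-19b-3p to each of the 265 other tested miRNAs, all late samples were above all normal samples in 27.9%, all late above all early samples in 16.2%, and all early above all normal samples in 2.64%.

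**Figure D3:**
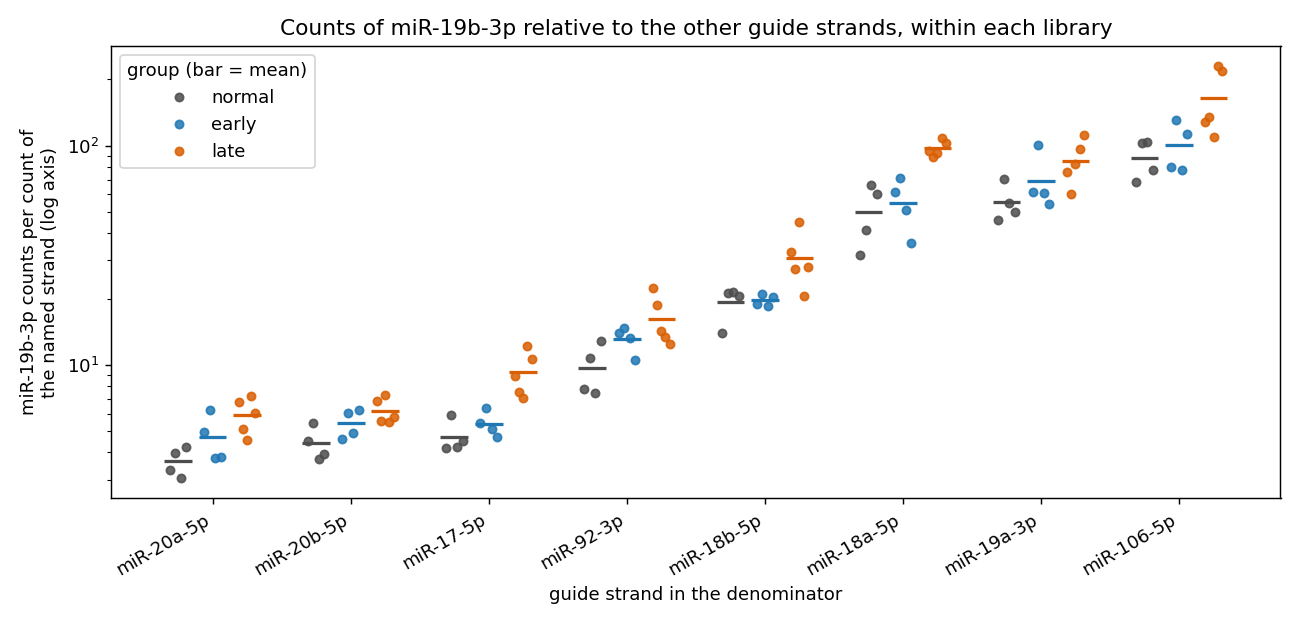
Counts of miR-19b-3p per count of each other guide strand, within each library (log axis), with points for samples and bars for group means. For miR-17-5p and miR-18a-5p the 5 late samples lie above all normal and early samples, while for miR-19a-3p, miR-18b-5p and miR-92-3p the groups overlap.

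Passenger strands of the same hairpins and both arms of miR-363, the remaining hairpin of the chromosome 4 cluster, were read from the same libraries. The table held 11 of these arms, and 8 passed the filter. MiR-363-3p averaged 1834 ± 219 CPM in normal ovary, 1854 ± 314 in early tumour and 2020 ± 294 in late tumour, with late against normal at 0.14 ± 0.17 (SE, edgeR adjusted p = 0.685). The ratio of miR-19b-3p to miR-363-3p was 2.05 ± 0.52, 2.21 ± 0.28 and 2.94 ± 0.61, and late overlapped normal samples.

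A ratio of guide to passenger could be formed for 7 pairs of arms, with miR-363-3p counted as the guide of its own hairpin. Guide counts of miR-19b and miR-92 may pool the hairpins of both clusters. Late and normal samples did not overlap for 2 of the 7 (miR-17 and miR-19b) and overlapped for the other 5 (miR-18a, miR-18b, miR-20a, miR-92 and miR-363). The 2 went opposite ways, with late means 0.686 times the normal mean for miR-17 and 2.15 times for miR-19b. How often such ratios separate among the other hairpins was not counted, so 2 of 7 cannot be called unusual. MiR-17-3p, the passenger of miR-17-5p, had 30 to 158 counts per library. There were 59.3, 52.5, 68.1 and 63.4 counts of the guide per count of the passenger in normal samples 3, 4, 6 and 7, and 65.1, 49.0, 85.3 and 73.3 in early samples 9, 11, 12 and 21. Late samples 3, 7, 23, 25 and 31 had 36.1, 51.99, 36.6, 38.9 and 44.9. Late samples were below normal samples, with late sample 7 close to normal sample 4, and late and early samples overlapped. MiR-17-3p itself was at 0.31 ± 0.28 (SE) in late against normal (edgeR adjusted p = 0.563).

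MiR-19b-5p, the passenger of miR-19b-3p, had 5 to 17 counts per library, so its ratios are coarse. The ratio of miR-19b-3p to it was 1859 ± 190 in normal, 2524 ± 645 in early and 3992 ± 1296 in late samples, and late and normal samples did not overlap. The passenger's own late against normal difference was -0.29 ± 0.36 (SE, edgeR adjusted p = 0.707). MiR-20a-3p, the passenger of miR-20a-5p, had the smallest p of these arms in late against normal (-0.91 ± 0.40 SE, p = 0.0388, edgeR adjusted p = 0.247), and normal sample 3 held the highest value, 15.7 CPM against 4.99 to 7.57 in the other normal samples.

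The members' profiles over the 13 libraries were compared as a description, without a test, since the points share libraries and groups. Pairs from the chromosome 1 cluster had a median Pearson r of 0.422 (6 pairs), pairs from the chromosome 4 cluster 0.156 (3 pairs) and pairs from different clusters 0.124 (12 pairs, from -0.571 to 0.797). Pairs with miR-19b-3p or miR-92-3p had a median of -0.02 (15 pairs). Among 257 other tested miRNAs, log2 CPM of miR-19b-3p was most like that of miR-3538 (r = 0.812) and miR-193a-3p (r = 0.794). MiR-193a-3p averaged 167.4, 231.6 and 280.4 CPM in normal, early and late samples. The nearest profiles were miR-30a-5p (r = 0.738) and miR-6548-5p (r = 0.654) for miR-20a-5p, miR-363-5p (r = 0.643) and miR-103-3p (r = 0.612) for miR-18b-5p, and let-7j-3p (r = 0.782) and miR-191-5p (r = 0.719) for miR-92-3p. MiR-363-5p comes from the same cluster as miR-18b-5p.

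Messenger RNAs were read for the transcription factors known to act on the cluster in mammals and for targets known from mammals. The host transcript MIR17HG was looked for, but the mRNA table had no row of that name. The 12 rows of the mRNA table named for the hairpins held 0 counts. Of 7 transcription factor genes tested, 0 were called in each comparison, where 0% of all 16130 genes were called. In early against normal 1 was higher and 6 lower (median log2 fold change -0.16), and in late against normal 3 were higher and 4 lower (-0.13). In late against early all 7 were higher (0.25), with 0 at an unadjusted p under 0.05. Over all genes 52.0%, 50.9% and 50.5% were higher. These comparisons share samples, so the directions are not independent. MYC, the activator of the cluster in mammals, averaged 38.9 ± 7.5 CPM in normal ovary, 34.9 ± 12.9 in early tumour and 35.6 ± 18.0 in late tumour (late against normal -0.13 ± 0.34 SE, edgeR adjusted p = 0.858). E2F1, a cell cycle activator and itself a target of miR-17 and miR-20a in human cells, stood at 31.8 ± 10.4, 22.2 ± 10.6 and 26.4 ± 9.7 CPM.

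MYCN, a relative of MYC, had 9.80, 11.2, 10.95 and 14.4 CPM in normal samples 3, 4, 6 and 7. It had 12.1 to 14.4 CPM in early samples, and 26.9, 13.9, 16.7, 14.2 and 15.3 CPM in late samples 3, 7, 23, 25 and 31. Late sample 3 was far above the rest, and normal sample 7 overlapped the late range. The late against normal difference was 0.59 ± 0.22 (SE, p = 0.0176, edgeR adjusted p = 0.247). MAX, the partner that MYC proteins need to bind DNA, had 19.7 to 28.5 CPM in normal and 14.2 to 19.1 in early samples, which did not overlap (-0.53 ± 0.19 SE, p = 0.0132, edgeR adjusted p = 0.916). The share of all genes that separated so was not counted, and MAX was named for its small unadjusted p.

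Of the 32 mammalian targets listed, 31 were in the table and were tested, and 0 were called in any comparison. At an unadjusted p under 0.05, 8 of 31 lay in late against normal (2 higher and 6 lower), where 17.9% of all genes lay. In early against normal 2 of 31 did (1 higher and 1 lower), beside 5.04% of all genes, and in late against early 2 of 31 did, both lower, beside 6.34%. The median log2 fold change of the targets in late against normal was -0.12, and that of all genes 0.01. In total 14 targets had a higher and 17 a lower fitted level there, and 50.9% of all genes were higher. In both other comparisons 15 targets were higher and 16 lower, beside 52.0% of all genes higher in early against normal and 50.5% in late against early.

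**Figure D4:**
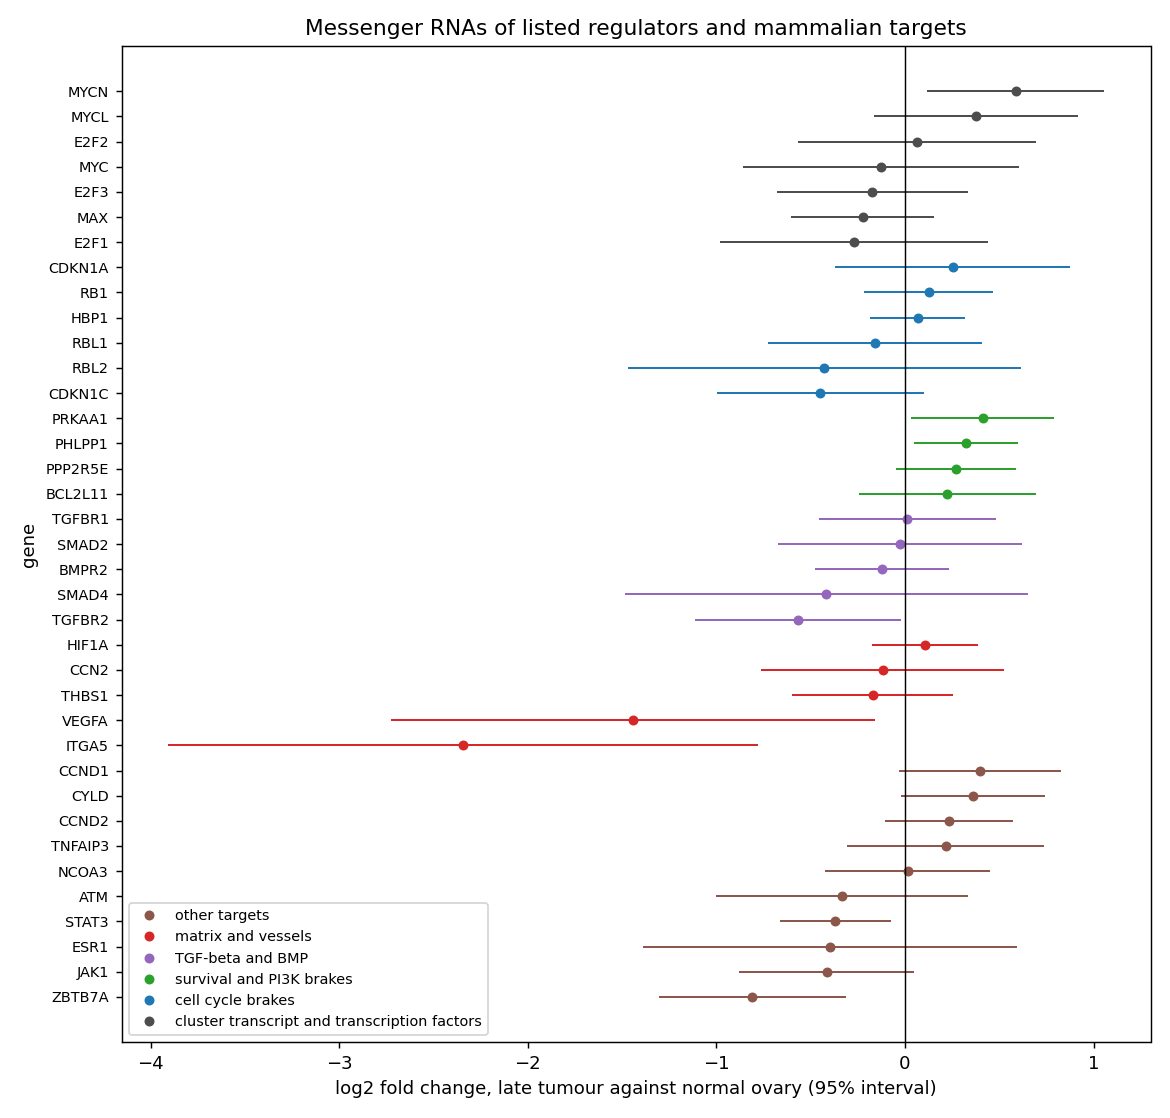
Fitted log2 fold change in late tumour against normal ovary (points) with its 95% interval (lines) for the listed transcription factor genes and mammalian targets, coloured by list. The targets lie on both sides of 0 (14 higher and 17 lower, of which 1 is not drawn), and the widest intervals belong to genes of low count such as ITGA5 and VEGFA.

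Among the brakes on survival and PI3K signalling, PHLPP1, an AKT phosphatase, had 48.4 to 60.3 CPM in normal, 52.8 to 61.9 in early and 58.5 to 82.4 in late samples. Its late against normal difference was 0.32 ± 0.13 (SE, edgeR adjusted p = 0.251). PRKAA1, a catalytic subunit of AMP kinase, had 99.1 to 150.1 CPM in normal, 107.3 to 177.7 in early and 129.2 to 186.5 in late samples, at 0.41 ± 0.18 (SE, edgeR adjusted p = 0.261). The groups overlapped for both genes. BCL2L11, which codes for the cell death protein BIM, was at 0.22 ± 0.22 (SE, edgeR adjusted p = 0.584).

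Of the 6 cell cycle brakes none had an unadjusted p under 0.05. The most abundant, CDKN1C, an inhibitor of cyclin-dependent kinases, averaged 200.5 ± 67.3 CPM in normal ovary, 164.4 ± 39.1 in early tumour and 146.9 ± 43.6 in late tumour (late against normal -0.45 ± 0.26 SE, edgeR adjusted p = 0.349). CDKN1A, another such inhibitor, was at 0.25 ± 0.29 (SE) and RB1, the retinoblastoma gene, at 0.13 ± 0.16 (SE).

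In the TGF-beta and BMP list, TGFBR2, the type II TGF-beta receptor, ranged from 21.7 to 29.0 CPM in normal, from 17.6 to 38.3 in early and from 12.8 to 24.2 in late samples. Its late against normal difference was -0.57 ± 0.25 (SE, edgeR adjusted p = 0.269). Among matrix and vessel genes, ITGA5, an integrin that binds fibronectin, had 8.99, 10.1, 4.56 and 1.43 CPM in normal samples 3, 4, 6 and 7 and 0.415 to 2.06 CPM in late samples (-2.34 ± 0.73 SE, edgeR adjusted p = 0.244). VEGFA, the vessel growth factor, had 8 to 34 counts in normal and 5 to 17 in late libraries (-1.44 ± 0.60 SE, edgeR adjusted p = 0.257). Normal sample 7 lay within the late range for both genes.

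Among the other targets, ZBTB7A, a transcriptional repressor, had 28.1, 34.3, 27.8 and 15.2 CPM in normal samples 3, 4, 6 and 7, and 12.98, 14.1, 14.7, 19.7 and 13.6 CPM in late samples 3, 7, 23, 25 and 31. Normal sample 7 lay within the late range. Its late against normal difference was -0.81 ± 0.23 (SE, edgeR adjusted p = 0.244), and without normal sample 7 it was called (-0.999, edgeR adjusted p = 0.0491). Over all genes 113 of 16360 were called without that sample, beside 0 of 16130 with all libraries. STAT3, a transcription factor of cytokine signalling, was at -0.37 ± 0.14 (SE, edgeR adjusted p = 0.247). Normal sample 7 had 146.8 CPM of STAT3, within the late range of 137.8 to 185.1, and the other normal samples had 208.9 to 224.4. Limma voom called ZBTB7A and STAT3 in late against normal (adjusted p = 0.0449 for each), among 895 calls over all 16130 genes. CYLD, a deubiquitinase that restrains NF-kappa-B, had 24.6 to 33.6 CPM in normal and 36.2 to 43.5 in early samples, which did not overlap (0.51 ± 0.19 SE, edgeR adjusted p = 0.916). CYLD too was named for its small unadjusted p, and the share of all genes that separated so was not counted.

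No messenger RNA of the lists of cell type markers passed the test. Of the marker miRNAs only miR-223 did, in late against normal (log2 fold change 1.08, edgeR adjusted p = 0.0483). The lists differed in how many of their genes had a lower fitted level in late than in normal samples. All 6 tested smooth muscle genes had a lower fitted level in late than in normal samples, and their summed level was 625.4 to 9570 CPM in normal, 371.2 to 3958 in early and 110.8 to 1593 in late samples. The 8 proliferation markers summed to 2138 to 3697, 2593 to 3537 and 2813 to 4669 CPM, and 6 of 8 had a higher fitted level in late than in normal samples. Of the 6 ovary markers 5 were higher there and 1 lower (median log2 fold change 0.28). The 3 tested B cell genes had 2 higher and 1 lower, and the 4 tested epithelial genes 2 higher and 2 lower. The myeloid miRNA miR-223 ranged from 251.4 to 489.2 CPM in normal, from 543.4 to 892.8 in early and from 559.6 to 958.5 in late samples, while the 7 myeloid genes in the mRNA libraries had a lower fitted level in late than in normal samples (median log2 fold change -1.22). All 4 tested red blood cell genes (median -1.04) and all 5 tested T cell genes (median -0.74) were lower as well. So were 5 of 6 endothelial genes (median -0.60), while EMCN was higher (0.32). The marker miRNAs of these tissues did not all go the same way. Red blood cell miR-451 was at 0.54 and miR-144-3p at -0.79 in late against normal, and endothelial miR-126-3p was at -0.10. The epithelial miRNAs miR-200a-3p, miR-200b-3p and miR-429-3p were at 0.07, -0.09 and -0.14. Of the white blood cell markers, miR-142-3p was at 0.14, miR-142-5p at 0.56, miR-155 at 1.47 and the gene PTPRC at -0.10. Of the smooth muscle miRNAs, miR-143-3p averaged 145223 CPM in normal and 90241 in late samples (-0.69 on the log2 scale), and miR-145-5p 12987 and 13961 CPM (0.10). Their part in the differences of miR-19b-3p and of the target genes was not tested.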

How the data were processed

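Small RNA and messenger RNA were read in 13 chicken ovary samples. The labels hold 26 library records without saying which RNA kind each is, and the sample codes in the column names gave the groups. For miRNA the authors deposited raw counts per miRNA, with a column of lengths. For mRNA they deposited estimated counts, of which 30.1% are not whole, and these were rounded. A deposited TPM table was not used. Per the submitters' processing notes, FastQC, BWA and GATK 3.3.0 were among the tools. How reads were counted (strand, shared reads) and on which build is not given in the sources used here. RefSeq symbols (GRCg7b; 25075 of 25079 matched) served for names and neighbours alone.

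Each kind was fitted with edgeR 4.0.16 in R 4.3.3 (quasi-likelihood, robust, TMM scaling, filterByExpr with minimum count 10, all 13 libraries, a mean per group), leaving 266 miRNAs and 16130 genes. Benjamini-Hochberg adjustment ran over every feature tested in a comparison (threshold 0.05). SE is the size of the log2 fold change over the root of F. The common variation between samples was 40.5% for miRNAs and 33.6% for genes. The tests were run on simulated data first. Alternatives used DESeq2 1.42.0 and limma 3.58.1, other scalings and filters, and left-out libraries. Likeness is Pearson's r of log2(CPM + 1). Named genes were all members, their passenger strands, the 2 most alike miRNAs of the most abundant member per seed family, and from each mRNA list up to 4 genes past an unadjusted p of 0.05, or else the most abundant. MYC, E2F1, CDKN1A, RB1 and BCL2L11 were named besides, after their values were seen. The members and lists were chosen with earlier results of these data known. A single-gene result of the target list is not reported here.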

Additional observations from a re-analysis of the deposited data

Results flagged for a closer look

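In groups of 4 or 5 samples, 7 of 87 groups held a sample far from the others by Dixon's criterion, and chance gives about 1 in 20. MiR-18a-5p was high in late sample 3 (79.4 CPM, others 52.2 to 58.9). MYCN was high in the mRNA library of late sample 3 (26.9 CPM, others 13.9 to 16.7). MiR-363-3p was low in early sample 21 (1385 CPM, others 1987 to 2057), and miR-92-5p, the passenger of miR-92-3p, was high in early sample 9 (7.44 CPM, others 4.29 to 4.73). TGFBR2 was low in normal sample 7 (21.7 CPM, others 28.2 to 29.0). ZBTB7A was high in late sample 25 (19.7 CPM, others 12.98 to 14.7). STAT3 was low in early sample 12 (165.8 CPM, others 174.9 to 175.5), where the others lie very close together.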

How the results depend on the processing

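The late against normal difference of miR-19b-3p kept its sign in every alternative run, from 0.57 to 0.84 on the log2 scale. It was called by DESeq2 (0.76) and without normal sample 7 (0.76), and by no other alternative, with adjusted p from 0.0559 upwards in the rest. Leaving out each library in turn gave 0.57 to 0.77. Summing near-identical strands before the fit was chosen after seeing the data. A value from that setting belongs to the summed pair and not to a single strand, so for miR-19b-3p it includes miR-19a-3p.

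Members near 0 changed sign. In late against normal miR-20a-5p was at 0.075 with RLE size factors and with DESeq2, 0.036 with no filter and 0.057 with library totals. It was at 0.060 without the 5 most abundant miRNAs in the scaling, 0.058 with only the groups compared and 0.195 with the replicate block. With strands summed, miR-20a-5p and miR-20b-5p together were at 0.061. MiR-92-3p there was at 0.017 with RLE and 0.016 with DESeq2. In early against normal miR-106-5p was at 0.014 with RLE, 0.013 with DESeq2 and 0.0062 with voom, and PRKAA1 at -0.026 with voom. With strands summed, miR-18a-5p and miR-18b-5p together were at 0.044 in that comparison. In late against early miR-18b-5p was at 0.018 with RLE and with DESeq2, 0.058 with no filter, 0.037 with library totals and 0.027 without the 5 most abundant. The cause was not tested.

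With single libraries left out, sign changes gave these ranges: in early against normal miR-106-5p -0.14 to 0.12, miR-17-5p -0.11 to 0.029, miR-18a-5p -0.17 to 0.155, PRKAA1 -0.032 to 0.23, TGFBR2 -0.11 to 0.24 and VEGFA -0.83 to 0.053. In late against normal they were miR-106-5p -0.31 to 0.072, miR-19a-3p -0.056 to 0.26, miR-20a-5p -0.084 to 0.13 and miR-92-3p -0.14 to 0.10. In late against early they were miR-106-5p -0.32 to 0.052 and miR-18b-5p -0.13 to 0.13. None of these was called.

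Among all miRNAs, late against normal had 2 calls in edgeR, 15 in DESeq2, 6 with no filter, 1 each with RLE, without the 5 most abundant and with only the groups compared, and 0 each with voom, library totals and the replicate block. Early against normal had 6 with no filter and 3 in DESeq2, and late against early 5 and 4. With single libraries left out the counts were 0 to 2, 0 to 10 (10 without normal sample 7, and 0 or 1 without each other library of the comparison except late sample 31, with 3) and 0 to 3 for early against normal, then late against normal, then late against early. Members called in late against normal numbered 1 in DESeq2 and 0 to 1 with libraries left out. Listed regulators and targets called there numbered 2 in voom (ZBTB7A at -0.86 and STAT3 at -0.47) and 0 to 1 with libraries left out (ZBTB7A at -0.999 without normal sample 7). Over all genes 895 were called there in voom, 126 in DESeq2 and 113 without normal sample 7, beside 0 in the main fit.

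Normal and late samples share only the numbers 3 and 7, which the labels do not call pairs. Deviations of same-numbered samples correlated at -0.12 and 0.0625 for miRNA and 4.53e-05 and -0.147 for mRNA. The replicate block over those 4 libraries gave 0.84 for miR-19b-3p in late against normal (adjusted p = 0.909), and 0 listed genes were called.

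Depth limits the passenger strands most, since miR-19b-5p had at most 17 counts in a library. Members had 106 or more. Shared reads within seed families cannot be separated here.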
